A study of Mus musculus with 18 samples.

Results

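The 41 genes described here encode proteins that mend broken, crosslinked or mispaired DNA, and they were taken by name from a table of 16545 genes measured by RNA sequencing in mouse splenic B cells. They fall into homologous recombination (10 genes), resection and break sensing (5 genes), the Fanconi anaemia pathway (10 genes), end joining (7 genes), mismatch and base excision repair (5 genes) and damage signalling kinases (4 genes). The cells came from 3 control mice (B lineage Cre/+ with wild-type *Zbtb24*) and 3 *Zbtb24* B-CKO mice (the same Cre/+ with both *Zbtb24* alleles floxed), with C57BL/6 as the strain of the targeted stem cells. Each mouse gave a library of resting cells (0 h) and of cells after 24 h and 48 h of LPS, the lipopolysaccharide of bacterial outer membranes that stimulates B cells by way of TLR4, so that there are 18 libraries in 6 groups of 3 mice. Cre acts in the B lineage from its early bone marrow stages onward, and control mice carry it too. Exon 2 of *Zbtb24*, which holds the start codon, is removed in B-CKO cells. Ages and sexes of these mice are not given in the sources used here, and cells cultured without LPS were not analysed here, so that LPS and time in culture cannot be told apart.

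B cells break their own DNA when they switch immunoglobulin class. The glycosylase UNG and mismatch repair turn uracils of the switch regions into breaks, and end joining by Ku70/Ku80 (*Xrcc6*, *Xrcc5*), XRCC4 and LIG4 seals them, while 53BP1 (*Trp53bp1*) and RIF1 keep the ends from being resected. Homologous recombination and the Fanconi anaemia pathway act mainly in S and G2 phase, at broken or crosslinked replication forks, and many of their genes are transcribed in step with the cell cycle through E2F factors. End-joining factors are available throughout the cycle.

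Promoter windows of 250 bases before to 50 bases after the start site were found for 32 of the 41 genes (RefSeq, GRCm38.p6) and searched on both strands for the E2F letters TTTCCCGC, TTTGCCGC, TTTCGCGC and TTTGGCGC. Only the most upstream start site of each gene was searched. Of these 32 promoters, 7 (21.88%) hold at least 1 of these E2F letter runs, against 3.711% of the 13151 genes of the table with a promoter and 12 of 30 (40%) of the DNA replication genes. The 7 belong to *Brca2*, *Bard1*, *Fancg*, *Xrcc6*, *Msh3*, *Msh6* and *Chek2*. The match of *Msh6* starts 15 bases after the start site. The other 6 lie before it, and 5 of them are printed because their genes, as described with each role, changed differently after LPS. They are printed 5′ to 3′ on the strand of the gene, with the E2F letters in capitals, and are cut to 30 bases where an annotated exon is near.
*Brca2*: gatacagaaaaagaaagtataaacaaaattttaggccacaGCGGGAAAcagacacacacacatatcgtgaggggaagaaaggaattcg
*Bard1*: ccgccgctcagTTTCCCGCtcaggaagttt
*Fancg*: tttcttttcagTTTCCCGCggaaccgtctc
*Xrcc6*: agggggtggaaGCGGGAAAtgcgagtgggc
*Chek2*: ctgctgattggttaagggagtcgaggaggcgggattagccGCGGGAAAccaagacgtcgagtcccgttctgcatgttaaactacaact

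The windows are chr5:150522413-150522500 (plus strand) for *Brca2*, chr1:71103163-71103192 (minus) for *Bard1*, chr4:43010335-43010364 (minus) for *Fancg*, chr15:82016312-82016341 (plus) for *Xrcc6* and chr5:110839791-110839878 (plus) for *Chek2*. In the GENCODE annotation the matches of *Brca2*, *Bard1* and *Chek2* lie outside any transcript. Those of *Fancg* and *Xrcc6* lie in an exon of the same gene. That of *Xrcc6* also lies within a transcript of the neighbouring gene *Desi1*. Of the same 32 promoters, 19 (59.38%) hold CCAAT, the core of the NF-Y box, against 38.72% of all promoters, and 1 holds TTTGAA, the core of the cell cycle homology region, against 13%. CAGGACCT, letters described for ZBTB24 itself, are in 0 of the 32 and in 1.817% of all promoters. A match of letters is a description of these windows and not a bound site.

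The authors deposited expression as FPKM, a number of fragments divided by transcript length and by the mapped fragments of the library, with 2 decimals. Every one of the 41 genes was above 0 FPKM in all 18 libraries, the lowest value being 0.35 FPKM (*Exo1* in a resting control library). Changes were tested with limma on log2(FPKM + 1), which understates the change of genes near 0 FPKM, and p-values were adjusted over all genes tested, with 0.05 as the threshold for calling a change. *Zbtb24* itself was at 49.56, 49.62 and 37.05 FPKM in resting control cells and at 14.33, 10.53 and 12.57 FPKM in resting B-CKO cells, a ratio of the means of 0.275. The gap was smaller with LPS, with ratios of 0.620 at 24 h and 0.686 at 48 h, and every B-CKO library lay below every control library at all times. The 6 B cell markers summed to between 2044.79 and 5229.94 FPKM in all libraries, and 9 T cell markers to between 9.3 and 35.17 FPKM. Replicates had Pearson correlations across genes between 0.986 and 0.999, but resting cells varied more: the median SD of the log2 values was 0.17 in resting control cells and 0.056 at 24 h. Resting replicate 3 of both genotypes stood apart for *Nbn* and *Chek2*, as given with these genes.

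**Figure D1:**
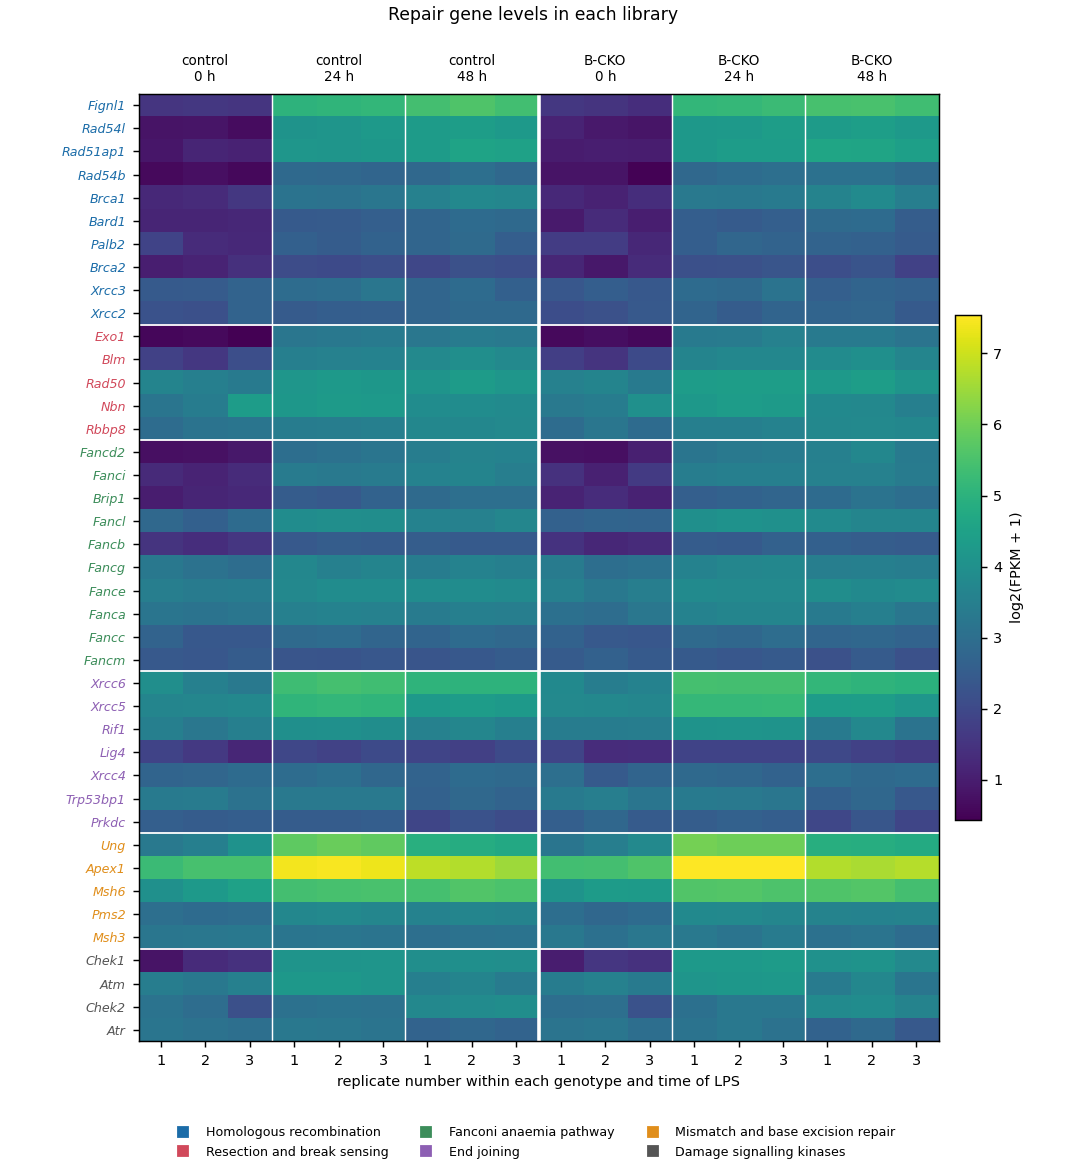
Heat map of log2(FPKM + 1) of the 41 repair genes (rows, grouped by role) in the 18 libraries (columns, by genotype, hours of LPS and replicate). *Apex1* is the brightest row at 24 h in both genotypes, rows such as *Exo1* and *Rad54l* turn from dark to bright after 0 h, and *Nbn* and *Chek2* differ in resting replicate 3.

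Resting B cells held little mRNA of the recombination genes, and most of the repair genes were higher after 24 h of LPS. In control cells 31 of the 41 genes rose from 0 h to 24 h and 0 fell, while 26.7% of all 15531 genes tested rose and 30.7% fell. The median log2 fold change of the 41 genes was 0.88, against -0.022 over all genes tested. By role, 9 of 10 recombination genes, 4 of 5 resection and sensing genes, 9 of 10 Fanconi genes, 3 of 7 end-joining genes, 4 of 5 mismatch and base excision genes and 2 of 4 kinases were called higher. The median of the 41 mean levels went from 4.88 FPKM at 0 h to 9.24 FPKM at 24 h, and the number of genes with a mean under 2 FPKM from 14 to 0. A lower level can come from fewer cells that express a gene or from less of its mRNA per cell, which cannot be told apart in bulk RNA. Proliferation markers moved with this rise, their sum going from 21.8–30.74 FPKM at 0 h over 335.39–393.75 FPKM at 24 h to 870.32–926.96 FPKM at 48 h in control cells, and immediate early genes moved against it, from 2113.64–3412.25 to 168.1–176.45 FPKM at 24 h. In the same control cells 4 of 6 B cell markers were called lower at 24 h, their sum going from 4071.9–5229.94 to 2350.73–2529.52 FPKM, and so were 9 of 9 T cell markers, from 25.46–35.17 to 13.03–15.25 FPKM. Their part in the changes was not tested. Rescaling the libraries to TPM shifted the median log2 fold change of all genes averaging 1 FPKM or more from 0.031 to -0.12 and left 29 genes called higher, *Rbbp8* and *Fancc* being lost.

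Between 24 h and 48 h the 41 genes moved in both directions. In control cells 11 rose further (26.8%, background 20.1% of 15178 genes) and 12 fell (29.3%, background 24.8%), shares near the background. A difference between roles was not tested. Among the recombination genes 5 rose and 0 fell, whereas among the end-joining genes 0 rose and 5 fell, and the mismatch and base excision genes had 0 rises and 2 falls. The Fanconi pathway had 3 rises and 1 fall, resection and sensing 2 rises and 1 fall, and the kinases 1 rise and 3 falls. In B-CKO cells the same step had 3 rises and 1 fall among the recombination genes, 1 rise and 1 fall in resection and sensing, 1 rise and 3 falls in the Fanconi pathway, 0 rises and 5 falls in end joining, 0 rises and 3 falls in mismatch and base excision repair, and 1 rise and 3 falls among the kinases. By mean FPKM in control cells, 19 of the 41 genes were highest at 24 h, 19 at 48 h and 3 at 0 h. In the same control cells 29 genes rose from 0 h to 48 h (background 26.5%) and 3 fell (background 30.3%). The 3 called lower than at rest were *Prkdc*, *Trp53bp1* and *Atr*. None of these calls held under all settings. *Atr* was not called with the mouse as a replicate block, without control replicate 1 or 3 at 48 h, or without replicate 1 or 2 at both times, *Trp53bp1* was not called without replicate 1 or 2, and *Prkdc* was not called without replicate 1 or 3.

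B-CKO cells were tested on their own 3 mice. From 0 h to 24 h 33 genes rose (background 27.5%) and 0 fell (background 32.3%), and these 33 hold all 31 of the control cells. The other 2 are *Xrcc2* and *Nbn*, and both of these calls were lost when some single libraries were left out. From 24 h to 48 h 6 genes rose (background 21.7%) and 16 fell (background 24%). The 6 that rose in B-CKO cells are among the 11 of the control cells, and all 12 genes that fell in control cells fell in B-CKO cells as well. The second step depended on single mice: without replicate 1 its calls dropped from 22 to 6, and without replicate 2 to 14. From 0 h to 48 h 27 genes rose (background 27%) and 3 fell (background 30.7%).

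**Figure D2:**
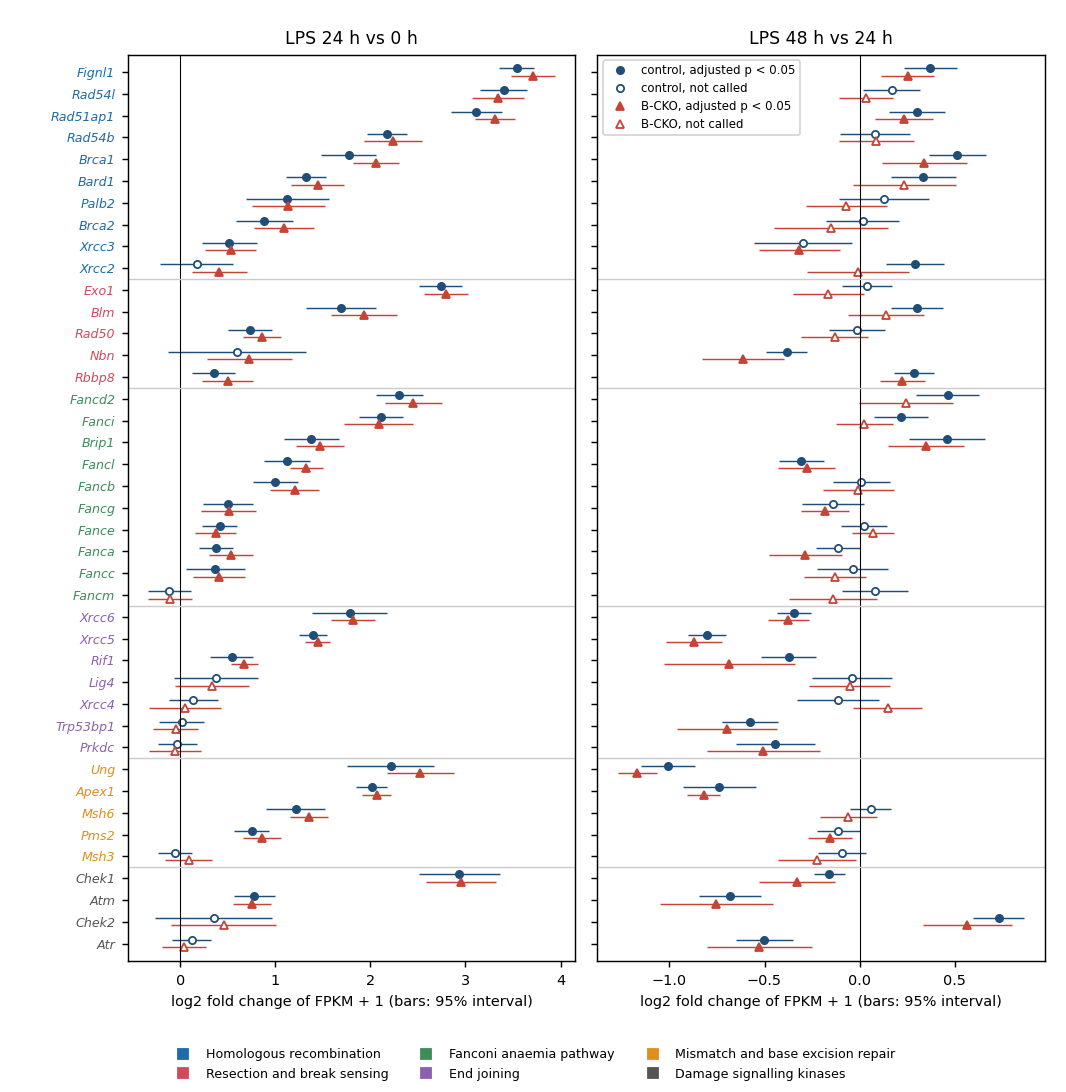
Log2 fold change of FPKM + 1 of each repair gene from 0 h to 24 h (left) and from 24 h to 48 h (right), in control (circles) and B-CKO (triangles) cells, with 95% intervals of limma and filled symbols where the adjusted p was under 0.05. On the left nearly all symbols lie right of 0, up to 3.54 for *Fignl1* in control cells. On the right *Ung*, *Apex1*, *Atm*, *Atr* and the end-joining genes lie left of 0, except *Xrcc4* in B-CKO cells. *Brca1* and *Chek2* lie right of 0 there.

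Homologous recombination copies the lost sequence from the sister chromatid. *Fignl1* (chr11:11800288-11808983), whose product is an ATPase of recombination, had the largest change of the 41 genes on the log2(FPKM + 1) scale, while by the ratio of mean FPKM, 17.1 for *Fignl1*, *Rad54l* and *Exo1* rose more. It was at 1.89, 2.00 and 1.91 FPKM in resting control cells, rose to 31.81, 33.00 and 34.53 FPKM by 24 h and reached 41.57, 46.98 and 41.12 FPKM by 48 h, without overlap between the times at 0 h and 24 h or at 24 h and 48 h (log2 fold change 3.54, standard error 0.076, adjusted p = 4.97e-06, then 0.37, adjusted p = 0.00233). *Rad54l*, which encodes the motor protein RAD54 that helps a broken strand invade the template, rose from 0.74, 0.78 and 0.60 FPKM to 15.96, 16.67 and 18.48 FPKM, a 24.1-fold rise of the mean (log2 fold change 3.40, adjusted p = 5.88e-06). It then stayed near that level, at 19.37, 20.07 and 18.31 FPKM, where the step was not called (adjusted p = 0.0662). This step was called as a rise with median-ratio scaling and with a mean of at least 1 FPKM. It was also called without replicate 3 at 24 h or at both times. *Rad51ap1*, which helps in strand invasion, rose 15.7-fold in mean FPKM, and *Rad54b* 10.7-fold. The tumour suppressor genes rose less. *Brca1* went from 1.38, 1.49 and 2.00 FPKM to 7.86, 7.61 and 8.26 FPKM and on to 10.84, 12.42 and 11.93 FPKM, both steps called (log2 fold changes 1.77 and 0.51). Its partner *Bard1*, which holds an E2F match, rose 3.66-fold by 24 h and again by 48 h (log2 fold change 0.33, adjusted p = 0.00864), the second call being lost without replicate 2 or 3. *Brca2*, a central mediator of recombination that also holds an E2F match, rose from 1.04, 1.20 and 1.69 FPKM to 3.21, 3.11 and 3.39 FPKM and did not move further (log2 fold change 0.02, adjusted p = 0.892). *Palb2*, the bridge between BRCA1 and BRCA2, rose 2.77-fold. The searched promoters of *Fignl1*, *Rad54l* and *Rad51ap1* hold none of the E2F letters. Among the promoters searched in this group, the matches were thus not in the genes with the largest rises. *Rad54l* has 2 start sites, of which only the most upstream was searched, and no promoter window was found for *Rad54b*.

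The recombination mediators *Xrcc2* and *Xrcc3* were the least responsive of the group, and both were among its most abundant members at rest. *Xrcc2* was at 3.68, 3.52 and 5.47 FPKM at 0 h and at 4.59, 4.91 and 4.96 FPKM at 24 h, with overlap and no call (log2 fold change 0.17, adjusted p = 0.391). It was higher at 48 h, at 5.73, 6.33 and 6.31 FPKM (adjusted p = 0.00931 against 24 h), a call that was lost in the fit of all 18 libraries and without replicate 2 or 3. In B-CKO cells the 24 h step of *Xrcc2* was called (log2 fold change 0.41, adjusted p = 0.0231) and the later step was not (-0.01, adjusted p = 0.976). Those calls were not shown to differ between genotypes, since the difference in the 48 h step was -0.30 with adjusted p = 0.673. *Xrcc3* rose 1.52-fold in control cells, a call lost without replicate 2, and 1.55-fold in B-CKO cells. In B-CKO cells it fell again by 0.32 on the log2 scale (adjusted p = 0.0253; not called without replicate 1 or 3), and its fall in control cells was not called (adjusted p = 0.0613) but passed under 5 other settings, among them TPM scaling and the fit of all 18 libraries, and without control replicate 2 at 48 h. *Brca1* and *Rad51ap1* rose from 24 h to 48 h in B-CKO cells too, with adjusted p of 0.0232 and 0.0228, but neither was called with the replicate number as a block.

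Resection exposes the single strand that recombination needs. *Exo1*, the exonuclease that acts in resection and in mismatch repair, was the lowest of the 41 genes at rest, at 0.48, 0.53 and 0.35 FPKM, and rose to 8.37, 8.63 and 9.10 FPKM at 24 h, a 19.2-fold rise of the mean (log2 fold change 2.74, standard error 0.094, adjusted p = 6.84e-06). At 48 h it was at 8.58, 9.40 and 8.92 FPKM and overlapped the 24 h values (adjusted p = 0.622). *Blm*, the helicase of Bloom syndrome, rose from 2.48, 2.02 and 3.43 FPKM to 10.29, 10.66 and 10.91 FPKM and then to 12.74, 14.39 and 12.86 FPKM, without overlap at either step (log2 fold changes 1.69 and 0.30), the second call being lost in the fit of all 18 libraries. *Rbbp8*, which encodes the resection factor CtIP, changed little, from 6.74, 7.77 and 8.15 FPKM over 9.60, 9.88 and 10.22 FPKM to 12.13, 12.12 and 12.62 FPKM (adjusted p = 0.0176 and 0.00217). The first of these calls was lost under TPM scaling, without any 1 of the 24 h control libraries and without replicate 2.

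*Rad50* and *Nbn* encode partners in the MRE11 complex that senses broken ends, and they took different courses. *Rad50* was at 11.43, 10.22 and 9.01 FPKM at 0 h, 17.03, 18.21 and 17.47 FPKM at 24 h and 16.25, 18.99 and 16.95 FPKM at 48 h, so that it rose 1.72-fold and held (adjusted p = 0.000883, then 0.86). *Nbn* was at 8.14, 9.69 and 19.71 FPKM at rest in control and at 8.86, 9.66 and 15.06 FPKM in B-CKO cells, replicate 3 being the highest of both genotypes. At 24 h all mice were close together, between 17.22 and 18.85 FPKM in control and between 17.70 and 19.70 FPKM in B-CKO cells. The rise of *Nbn* was called in B-CKO cells (adjusted p = 0.0142) and not in control cells (adjusted p = 0.136). Leaving out resting control replicate 3 raised the control log2 fold change from 0.60 to 0.95, which was then called. The control rise was also called without replicate 3 at both times and in the fit of all 18 libraries. So it was with the replicate block and a mean of at least 1 FPKM. The B-CKO call in turn was lost without replicate 2 at 0 h, without replicate 2 at 24 h, and without replicate 1 or replicate 2 at both times. It fell in both genotypes by 48 h, by 0.38 and 0.61 on the log2 scale (adjusted p = 0.000642 and 0.00158), calls that were lost in the fit of all 18 libraries.

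The Fanconi anaemia pathway removes crosslinks between the strands. A core complex ubiquitinates FANCD2 and FANCI, which then bring nucleases and recombination factors to the fork. The ubiquitinated pair rose most. *Fancd2* went from 0.64, 0.68 and 0.87 FPKM to 7.04, 7.44 and 8.12 FPKM and on to 9.99, 11.17 and 11.11 FPKM in control cells (log2 fold changes 2.30 and 0.46, adjusted p = 1.21e-05 and 0.00184). *Fanci* went from 1.45, 1.20 and 1.47 FPKM to 9.45, 8.82 and 9.45 FPKM (log2 fold change 2.11, adjusted p = 1.31e-05) and to 10.96, 11.58 and 10.20 FPKM, a second step whose adjusted p of 0.0228 was lost with the replicate block. *Brip1*, the helicase that binds BRCA1, rose in both steps, 3.92-fold and 1.45-fold, the second call being lost without replicate 2.

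The core complex genes had smaller changes than *Fancd2* and *Fanci*. *Fancl*, the ubiquitin ligase itself, went from 6.10, 5.17 and 6.63 FPKM to 13.77, 14.52 and 14.04 FPKM, and it fell again by 48 h, to 11.07, 10.74 and 11.86 FPKM (fell by 0.31 on the log2 scale, adjusted p = 0.00257). *Fancb* rose 2.56-fold. The rises of *Fanca*, *Fancc*, *Fance* and *Fancg* were between 1.33-fold and 1.47-fold. All 4 were called in control cells and lost without replicate 2, *Fancc* with an adjusted p of 0.0476 that was lost under several settings, the replicate block among them. *Fancg*, with its E2F match, went from 8.70, 7.72 and 6.83 FPKM to 12.15, 10.55 and 11.45 FPKM. *Fancm*, which encodes the translocase that brings the core complex to the fork, was flat, at 4.38, 4.12 and 4.66 FPKM, 3.98, 3.81 and 4.15 FPKM, and 3.94, 4.25 and 4.64 FPKM, with a 24 h log2 fold change of -0.11 (adjusted p = 0.346).

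End joining seals broken ends without a template. The Ku genes led this group. *Xrcc5* (Ku80) rose from 11.76, 11.91 and 12.51 FPKM to 32.62, 34.52 and 32.86 FPKM and fell to 18.52, 19.55 and 17.99 FPKM, so that neither step overlapped (log2 fold change 1.39, adjusted p = 1.1e-05, then a fall by 0.80, adjusted p = 3.98e-05). *Xrcc6* (Ku70), whose exon holds an E2F match, rose from 14.48, 10.46 and 8.93 FPKM to 39.02, 42.47 and 40.16 FPKM and kept more of its rise, at 32.05, 31.66 and 31.39 FPKM (log2 fold change 1.78, then a fall by 0.34, adjusted p = 0.000485). The partners of Ku in the joining reaction had smaller changes. *Prkdc*, the catalytic subunit of DNA-PK, was at 5.03, 4.68 and 4.92 FPKM, then 4.66, 4.71 and 4.89 FPKM (log2 fold change -0.03, adjusted p = 0.784), and at 48 h lay below both, at 2.79, 3.66 and 3.28 FPKM (fell by 0.44 on the log2 scale, adjusted p = 0.00595, not called without replicate 3). *Xrcc4* and *Lig4*, the scaffold and the ligase of the last step, were not called in either step in control cells, although the 24 h step of *Lig4* was called without control replicate 1 at 0 h. They had mean ratios of 1.12 and 1.41 at 24 h.

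The genes that shield ends from resection fell late. *Trp53bp1* was at 9.09, 9.58 and 7.72 FPKM at rest and at 8.82, 8.95 and 8.86 FPKM at 24 h (log2 fold change 0.02, adjusted p = 0.894), and dropped to 5.28, 6.09 and 5.54 FPKM at 48 h, below every earlier value (fell by 0.58 on the log2 scale, adjusted p = 0.000428). *Rif1* rose from 10.27, 8.55 and 10.37 FPKM to 14.57, 15.07 and 14.14 FPKM and returned to 10.81, 11.99 and 10.36 FPKM (adjusted p = 0.00282 and 0.00255). In B-CKO cells *Rif1* fell by 0.69 on the log2 scale in that step (adjusted p = 0.0077), a call that was lost without replicate 1 and without replicate 3.

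Mismatch and base excision repair held the most abundant members. *Apex1*, the endonuclease that cuts at abasic sites, was at 38.03, 43.02 and 43.20 FPKM at rest, at 169.63, 176.17 and 164.71 FPKM at 24 h and at 112.28, 104.17 and 89.57 FPKM at 48 h, with no overlap between times (log2 fold change 2.01, adjusted p = 6.49e-06, then a fall by 0.74, adjusted p = 0.000466). *Ung*, the glycosylase that removes uracil from DNA, had the sharpest peak. It went from 8.93, 10.30 and 15.53 FPKM to 53.57, 59.20 and 55.39 FPKM and back to 29.31, 27.32 and 25.58 FPKM (log2 fold change 2.21, adjusted p = 0.00013, then a fall by 1.01, adjusted p = 5.34e-05), the largest fall of the 41 genes in that step. In B-CKO cells *Ung* went from 8.14, 10.15 and 12.67 FPKM over 66.08, 62.36 and 61.62 FPKM to 28.50, 27.93 and 26.45 FPKM. Resting replicate 3 was the highest in both genotypes for this gene too.

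*Msh6* and *Msh3* both have E2F letters in their promoters, and they took different courses. *Msh6*, which acts in the recognition of base mismatches, rose from 14.88, 18.05 and 21.61 FPKM to 42.06, 43.19 and 43.96 FPKM and stayed at 42.50, 47.51 and 44.77 FPKM (log2 fold change 1.21, adjusted p = 0.000335, then 0.06, adjusted p = 0.358). *Msh3*, which acts in the recognition of loops, was at 8.29, 8.49 and 8.70 FPKM, 8.16, 8.37 and 7.92 FPKM, and 7.22, 7.67 and 7.87 FPKM (log2 fold change -0.05, adjusted p = 0.575 at 24 h). *Pms2*, the nuclease of mismatch repair, rose 1.78-fold (adjusted p = 0.000266).

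**Figure D3:**
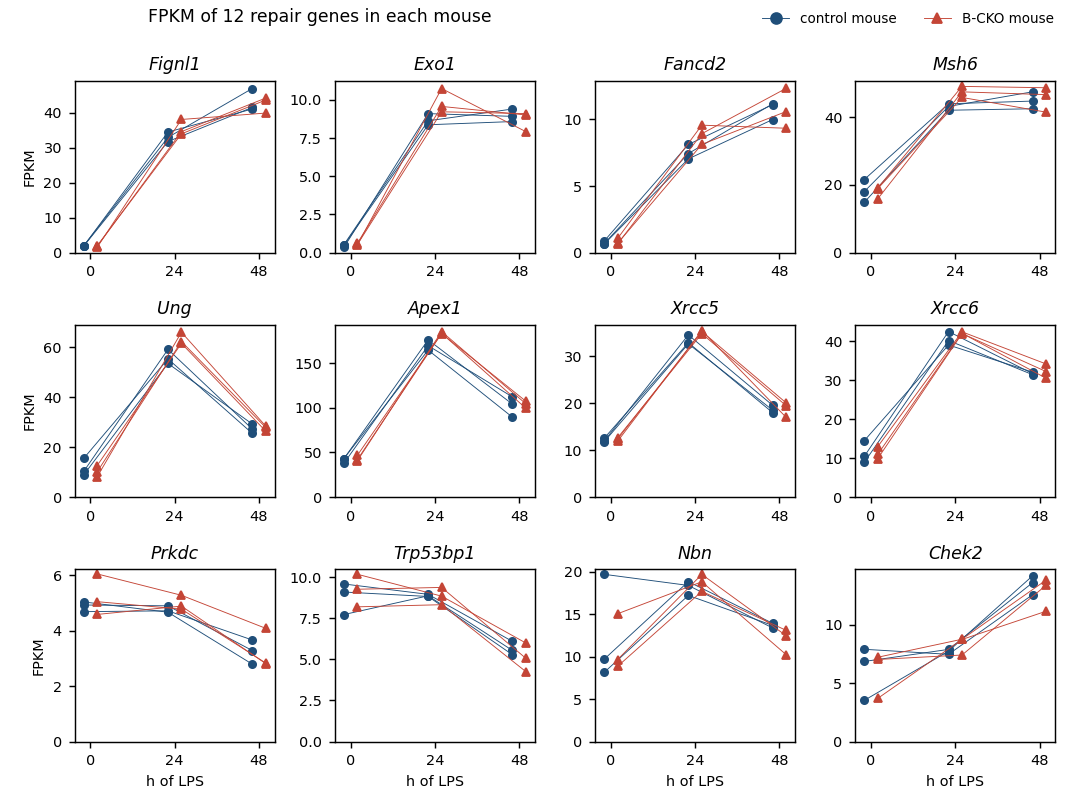
FPKM of 12 repair genes before LPS and after 24 h and 48 h, with a line for each mouse (control circles, B-CKO triangles, set slightly apart in time so that they can be seen). *Fignl1* and *Fancd2* climb through 48 h, *Exo1* and *Msh6* level off, *Ung*, *Apex1* and *Xrcc5* peak at 24 h, *Prkdc* and *Trp53bp1* fall after 24 h, and *Nbn* and *Chek2* have a resting mouse of each genotype apart from the others.

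The 4 kinases took 4 courses. *Chek1*, which stops the cycle when replication stalls, rose from 0.75, 1.46 and 1.71 FPKM to 16.36, 16.16 and 16.60 FPKM, a 12.5-fold rise of the mean, and eased to 14.42, 14.70 and 14.54 FPKM (log2 fold change 2.94, adjusted p = 3.09e-05, then a fall by 0.16, adjusted p = 0.00874, lost in the fit of all 18 libraries and without replicate 1 or 3). *Atr*, the kinase that activates CHK1, was at 8.10, 7.68 and 7.23 FPKM at rest, at 8.78, 8.57 and 7.92 FPKM at 24 h (log2 fold change 0.12, adjusted p = 0.282) and at 5.46, 6.02 and 5.50 FPKM at 48 h (fell by 0.50 on the log2 scale, adjusted p = 0.000895). *Atm*, the kinase activated by double-strand breaks, rose from 9.96, 8.63 and 10.55 FPKM to 17.71, 17.55 and 16.77 FPKM and returned to 10.30, 11.53 and 9.57 FPKM (adjusted p = 0.000472 and 0.000328). *Chek2*, the kinase that ATM activates, rose in the later step. It was at 7.89, 6.85 and 3.52 FPKM at rest in control and at 7.02, 7.21 and 3.69 FPKM in B-CKO cells, with replicate 3 the lowest of both, then at 7.46, 7.88 and 7.73 FPKM in control cells at 24 h (adjusted p = 0.286) and at 12.57, 13.60 and 14.19 FPKM at 48 h (log2 fold change 0.73, adjusted p = 0.000125), the largest rise of the 41 genes in that step.

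The wider repair machinery moved in both directions. Of 73 other repair genes, 39 rose (background 26.7%) and 13 fell (background 30.7%) from 0 h to 24 h in control cells, with a median log2 fold change of 0.41. Of 38 DNA replication genes, 36 rose and 1 fell, with a median of 2.56. No difference between these lists was tested. Of the other repair genes *Uhrf1*, which reads hemimethylated DNA, rose most on the log2(FPKM + 1) scale in that step, from 5.71, 7.21 and 5.11 FPKM to 124.85, 134.13 and 142.48 FPKM, and the checkpoint mediator *Clspn* and the recombination factor *Hrob* had log2 fold changes of 3.33 and 2.84. By the ratio of mean FPKM *Hrob* rose more than *Uhrf1* (24.7-fold against 22.3-fold). The largest falls were in base excision and end joining. *Neil1*, a glycosylase for oxidised bases, fell by 3.23 on the log2 scale (adjusted p = 0.00149), from 32.25, 89.63 and 130.24 FPKM to 6.58, 7.23 and 6.70 FPKM. *Paxx*, a Ku-binding joining factor, fell from 26.73, 27.16 and 31.53 FPKM to 7.93, 8.36 and 7.58 FPKM, and *Dclre1c*, the nuclease Artemis, from 10.02, 14.87 and 24.29 FPKM to 6.85, 5.91 and 5.95 FPKM. End joining thus held both the rising Ku genes and the falling *Paxx* and *Dclre1c*.

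Of the 41 genes, 12 start within 1000 bases of a gene that runs the other way, so that a shared stretch lies between the starts. The members of a pair could move apart. *Nbr1*, an autophagy receptor whose start lies 152 bases from that of *Brca1*, fell by 1.18 on the log2 scale in the first 24 h (adjusted p = 8.92e-05), while *Brca1* rose. *Aimp2*, a part of the aminoacyl-tRNA synthetase complex beside *Pms2*, rose more than its neighbour (log2 fold change 2.16 against 0.75). *Npat*, the histone gene activator beside *Atm*, rose with it (0.65 against 0.78), and *Osgep*, a tRNA-modifying enzyme beside *Apex1*, rose less (0.24 against 2.01). The RefSeq spans of 15 of the 41 genes overlap that of another gene of the table, and whether the counting used strand is not given in the sources used here, so that fragments of overlapping ends may be counted for either gene.

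None of the 41 genes passed the threshold between B-CKO and control cells. With limma, 0 genes were called at 0 h (background 0% of 15641 genes), 0 at 24 h (background 0.0993% of 15104) and 0 at 48 h (background 0.046% of 15210). At an unadjusted p under 0.05 there were 0 of the 41 at 0 h, 13 at 24 h and 0 at 48 h, against 2%, 16.3% and 7.71% of all genes tested. The 95% intervals of all 41 genes lay within a 1.5-fold difference at 24 h and at 48 h, and those of 35 did at 0 h, where replicates were less close. A single fit of all 18 libraries and the fit with the replicate number as a block also called 0 of the 41 at each time.

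At 24 h small differences nevertheless lay mostly on one side. Of the 41 genes, 34 had a higher mean log2 level in B-CKO cells, with a median log2 fold change of 0.094 (all genes tested, -0.005). Leaving out any library or replicate number, or another scaling, gave between 32 and 36 genes on that side. In 17 (41.5%) every B-CKO library lay above every control library, and in 0 below. Over all genes tested those shares are 8.43% and 11.7%. The 17 comprise 3 recombination genes, 4 resection and sensing genes, 4 Fanconi genes, 2 end-joining genes, 3 mismatch and base excision genes and 1 kinase. *Rad50* had the smallest p, with 17.03, 18.21 and 17.47 FPKM in control and 19.52, 20.00 and 20.04 FPKM in B-CKO cells (1.12-fold on the FPKM + 1 scale, interval 1.06 to 1.19, adjusted p = 0.104). *Chek1* was at 16.36, 16.16 and 16.60 FPKM against 17.99, 18.43 and 19.25 FPKM (1.13-fold, interval 1.06 to 1.19, adjusted p = 0.104). *Fancd2* had the largest difference, with 7.04, 7.44 and 8.12 FPKM against 8.13, 8.93 and 9.57 FPKM (1.16-fold, interval 1.03 to 1.31, adjusted p = 0.225), the nearest values of both groups being 8.12 and 8.13 FPKM. When genes averaging under 1 FPKM were left out, *Rad50* and *Chek1* were called (background 4%), and with the replicate block added, *Fancd2* as well (background 7.25%). The DNA replication genes lay the same way, with 28 of 38 (73.7%) above control in every library and 0 called. Their part in the differences of the repair genes was not tested.

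At 48 h the differences lay on both sides. Of the 41 genes, 13 had a higher and 28 a lower mean log2 level in B-CKO cells, 0 were above and 1 was below control in every library, against 4.89% and 6.24% of all genes tested. This balance rested on single libraries, since without B-CKO replicate 3 at 48 h 29 genes were higher, without control replicate 2 at 48 h 24 were, and without replicate 3 of both 25 were. The gene below was *Nbn*, at 13.69, 13.94 and 13.39 FPKM in control and 13.11, 12.48 and 10.25 FPKM in B-CKO cells (a log2 fold change -0.19, adjusted p = 0.688). The change from 24 h to 48 h was lower in B-CKO cells for 37 of the 41 genes, with a median difference of -0.12 (29 genes without B-CKO replicate 3 at 48 h, and 27 without replicate 3 of all groups). Over all genes tested 7968 were lower and 7825 higher, and of the DNA replication genes 38 of 38 were lower, with a median difference of -0.20. For the 41 genes 0 of these differences were called, with 2 at an unadjusted p under 0.05 (background 7.31%). The differences in the other steps were not called for any of the 41 genes either, with 0 at an unadjusted p under 0.05 from 0 h to 24 h (background 2.89%) and 0 from 0 h to 48 h (background 2.6%). At rest *Rad54l* had the smallest p, at 0.74, 0.78 and 0.60 FPKM in control and 1.21, 0.88 and 0.78 FPKM in B-CKO cells, with overlap (log2 fold change 0.19, adjusted p = 1).

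**Figure D4:**
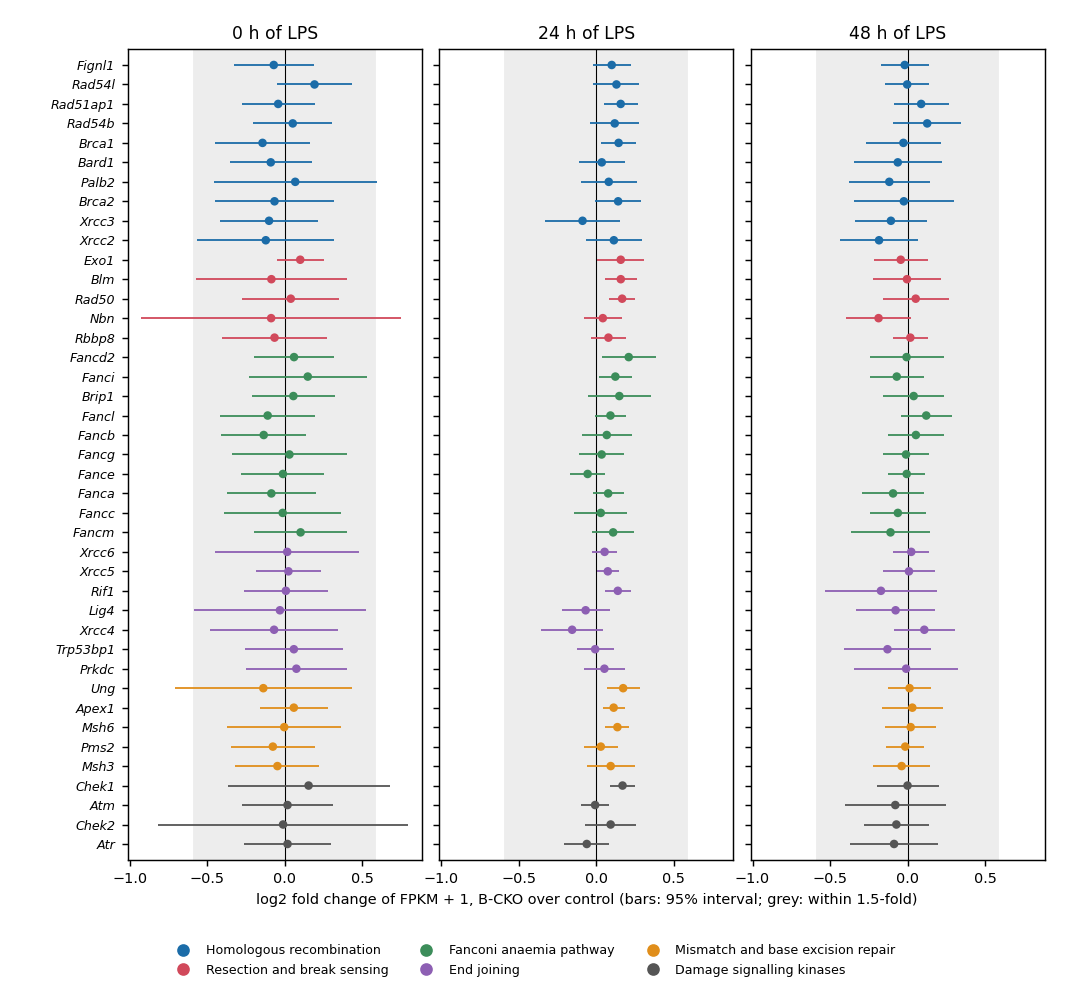
Log2 fold change of FPKM + 1 between B-CKO and control cells for each repair gene before LPS and after 24 h and 48 h, with 95% intervals of limma, coloured by role, and a grey band for differences within 1.5-fold. The points lie between -0.14 and 0.19 at 0 h, between -0.15 and 0.21 at 24 h, where 34 of 41 are right of 0, and between -0.19 and 0.13 at 48 h.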

How the data were processed

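Reads were mapped to mm10 with bowtie2, and transcript abundance was estimated with Cufflinks and RSEM, by the authors, who deposited FPKM values with 2 decimals for 16545 genes, 16512 of which matched a RefSeq symbol. The submitters' processing notes also name BWA and DESeq2, and versions are not given in the sources used here. FPKM carry no depth, since the fragments behind a value are not given, and no counting interval was computed.

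The 41 genes, the gene lists and the rule for genes given in every library were chosen with earlier results of these data known. By that rule these are the 2 largest changes and the smallest from 0 h to 24 h in control cells per role, 7 class switching genes, the smallest p between genotypes at each time, and the 3 largest rises and falls of other repair genes. *Brca1*, *Brca2*, *Chek2*, *Fancl* and *Fancg* were added after their values were seen. Tests ran on log2(FPKM + 1) in limma 3.58.1 (R 4.3.3; lmFit, and eBayes with a trend) on the 6 libraries of each comparison and, for differences between genotypes in a change, on 12. A gene listed at 0 FPKM in every library of a comparison was dropped from it, and Benjamini-Hochberg adjustment ran over all remaining genes. Since counts were not at hand, the authors' DESeq2 test was not used. Alternatives were another pseudocount, a minimum level, other scalings, a variance per group, a fit of all libraries, a replicate block, a cutoff adapted from the study and leaving out libraries.

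Replicate numbers were read as mice within a genotype, as the study used 1 mouse per replicate. Deviations from the group means of same-numbered control and B-CKO libraries had correlations across genes of 0.82, 0.44 and 0.75 at 0 h, although the labels do not say what they share. At 24 h (0.066, 0.15 and 0.079) and 48 h (-0.048, 0.18 and 0.18) these correlations were lower. What same-numbered mice share at those times is not known. Figures were drawn with matplotlib 3.10.9.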

Additional observations from a re-analysis of the deposited data

How the results depend on the processing

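The counts of genes called per comparison stayed within 1.5 times the reported ones under a pseudocount of 0.1, TPM or median-ratio scaling, a variance per group, a single fit of 18 libraries and the replicate block, with the exceptions named here. A cutoff adapted from the study, whose fold change limit was read as a log2 change and whose p was taken as unadjusted, gave 11 calls against 23 from 24 h to 48 h in control cells and 10 against 22 in B-CKO cells. Between genotypes at 24 h, 2 genes were called with a mean of at least 1 FPKM and 3 with the replicate block added to it, a setting chosen after seeing the data. With the replicate block alone 30 genes were called from 0 h to 24 h in control cells and 33 in B-CKO cells, and 22 and 18 from 24 h to 48 h. Leaving out a library or a replicate number gave 25 to 32 calls from 0 h to 24 h, 18 to 23 from 24 h to 48 h and 25 to 33 from 0 h to 48 h in control cells. In B-CKO cells it gave 28 to 34, 6 to 23 and 27 to 31, the lowest count from 24 h to 48 h being 6 without replicate 1, followed by 14 without replicate 2. Between genotypes it gave 0 throughout.

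Some changes that were not called turned in direction. In control cells from 0 h to 24 h, *Trp53bp1* was -0.14 and *Atr* -0.030 after TPM scaling, and leaving out libraries gave -0.065 to 0.074 for *Trp53bp1* and -0.055 to 0.00014 for *Prkdc*. In B-CKO cells *Msh3* was -0.065 and *Atr* -0.11 after TPM scaling, and leaving out libraries gave -0.12 to 0.018 for *Trp53bp1*, -0.13 to 0.040 for *Prkdc* and -0.024 to 0.083 for *Atr*. From 24 h to 48 h, *Rad50* in control cells was 0.0062 after median-ratio scaling and -0.077 to 0.029 without single libraries. In B-CKO cells *Rad54l* was -0.017 and *Fanci* -0.027 after TPM scaling and *Xrcc2* 0.0014 after median-ratio scaling, and leaving out libraries gave -0.012 to 0.12 for *Rad54l*, -0.021 to 0.095 for *Fanci*, -0.14 to 0.13 for *Xrcc2* and -0.11 to 0.0064 for *Msh6*. The cause was not tested. Of the other values of named genes, 1498 kept their side of the threshold, 59 lost and 24 gained a call. With the mouse as a block, calls were also lost for *Fancg*, *Fanca* and *Xrcc2* from 0 h to 48 h in control cells, for *Xrcc2* in B-CKO cells, and for *Fancg* and *Pms2* from 24 h to 48 h in B-CKO cells.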

Other observations

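Several repair genes differed between resting mice by replicate number in both genotypes. *Neil1* was at 32.25, 89.63 and 130.24 FPKM in control replicates 1, 2 and 3 at 0 h and at 39.58, 80.81 and 120.86 FPKM in the same-numbered B-CKO replicates. *Dclre1c* was at 10.02, 14.87 and 24.29 FPKM in control and 9.90, 13.68 and 15.94 FPKM in B-CKO cells. With LPS for 24 h these genes lay within 5.38 to 7.23 FPKM and 5.17 to 6.85 FPKM over all 6 mice. The sources do not say what resting libraries of one number share.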
